A study of Mus musculus with 12 samples.

Results

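The genes described here are 9 transcription factor genes of the Six- and T-box families, Six2, Six4, Tbx1, Tbx2, Tbx3, Tbx4, Tbx5, Tbx15 and Tbx18, in mouse embryonic fibroblasts. They were chosen by name on the differences in measured array signal between the groups described here. Their probes were those whose RefSeq accessions map to the 9 names, 10 probes in all because Six2 has 2, out of 21367 genes named on the array. The fibroblasts came from C57BL/6 embryos and carried viral vectors for RASV12, an oncogenic RAS, and for shp53, a short hairpin RNA against the mouse p53 mRNA. There were 4 groups of 3 one-colour arrays. Cells of 2 groups received a single vector, shp53 or RASV12, and cells of the other 2 received both, either shp53 before RASV12 (called shp53-first here) or RASV12 before shp53 (called RASV12-first). Every group carried at least 1 vector, so no level in fibroblasts without a vector is given. Which RAS gene, promoter, virus and times between vectors were used is not given in the sources used here, and the labels do not tie the replicates to embryos or cultures. The title contrasts cells transformed after senescence with cells transformed without it, and the comparison of the 2 vector orders addresses that question.

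Six-family proteins are homeodomain factors that bind DNA and recruit Eya co-activators or Dach co-repressors, and Pax genes often act with them in the same regulatory circuit. T-box proteins share a DNA-binding domain and act as activators or repressors depending on the member. In the embryo both families mark position and progenitor type: Six2 keeps nephron progenitors undifferentiated, Six4 acts in muscle and placodes, Tbx1 patterns the pharyngeal arches, Tbx5 and Tbx4 mark the fore- and hindlimb buds, and Tbx15 and Tbx18 act in the skeleton and mesenchyme. Tbx2 and Tbx3 are repressors known to silence Cdkn2a, the locus of the cell cycle inhibitors p16Ink4a and p19Arf, and to let fibroblasts bypass senescence.

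The level of a gene is its log2 processed signal minus the 75th percentile of that array, so a level of 0 is the signal at that percentile and a step of 1 is a factor of 2 in signal. Levels of different genes come from different probes and are not compared. Since the genes were chosen with their values in all 4 groups known, their levels and differences are a description, and no p-value is given for them. Gene-level differences are given with the standard error (SE) from limma, a linear model fitted to all 14444 genes that passed the filter on dim probes. All 9 genes passed it, and none passed through 1 group alone. Between 56.6% and 62.4% of spots per array were well above background. Trp53, the target of the hairpin, had a mean level of -0.56 ± 0.20 (SD, n = 3) with RASV12 alone and of -3.27 ± 0.25 (SD, n = 3), -3.61 ± 0.31 (SD, n = 3) and -3.99 ± 0.15 (SD, n = 3) in the shp53, shp53-first and RASV12-first groups, so all 3 groups labelled with the hairpin were lower. The 10 fibroblast markers checked, among them Col1a1, Pdgfra and Thy1, were well above background on all arrays. So were some markers of other cell types on all 3 arrays of every group: 3 of 4 neural and glial, 2 or 3 of 4 endothelial and 1 of 5 epithelial ones. The check therefore does not show that the samples held fibroblasts alone. In each group 2 arrays lay closer to each other (r over genes 0.993 to 0.998) than either did to the third (0.967 to 0.981): replicates 1 and 3 of the single-vector groups and replicates 2 and 3 of the two-vector groups. The arrays are bulk samples, so fewer cells of a type and less RNA per cell cannot be told apart.

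In RASV12-first fibroblasts 4 of the 9 genes, Six2, Tbx1, Tbx4 and Tbx18, were not well above background on any array, although all 9 were well above it on every array of the other 3 groups. The upstream sequences of these 4 genes are shown because their levels stood apart in the same group. They are the 250 bases before the annotated start in RefSeq (GRCm38.p6), 5′ to 3′ on the gene's strand, at chr17:85688255-85688504 on the minus strand for Six2, chr16:18590672-18590921 on the minus strand for Tbx1, chr11:85896515-85896764 on the plus strand for Tbx4 and chr9:87731261-87731510 on the minus strand for Tbx18. Capitals mark a GC box, with the letters GGGCGG, on either strand. They also mark a CCAAT box and a TATA box (TATAAA), again on either strand. ATTGG in the Tbx18 stretch and TTTATA in the Tbx4 stretch are these 2 motifs on the opposite strand.
Six2: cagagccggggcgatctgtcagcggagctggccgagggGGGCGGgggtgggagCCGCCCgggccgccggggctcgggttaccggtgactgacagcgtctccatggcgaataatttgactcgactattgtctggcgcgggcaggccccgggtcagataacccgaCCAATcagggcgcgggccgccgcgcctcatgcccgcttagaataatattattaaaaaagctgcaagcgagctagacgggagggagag
Tbx1: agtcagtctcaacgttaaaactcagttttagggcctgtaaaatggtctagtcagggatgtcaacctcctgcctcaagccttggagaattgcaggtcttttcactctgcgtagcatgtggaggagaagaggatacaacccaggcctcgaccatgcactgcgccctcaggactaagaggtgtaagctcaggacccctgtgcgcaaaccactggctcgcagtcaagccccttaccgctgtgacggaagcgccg
Tbx4: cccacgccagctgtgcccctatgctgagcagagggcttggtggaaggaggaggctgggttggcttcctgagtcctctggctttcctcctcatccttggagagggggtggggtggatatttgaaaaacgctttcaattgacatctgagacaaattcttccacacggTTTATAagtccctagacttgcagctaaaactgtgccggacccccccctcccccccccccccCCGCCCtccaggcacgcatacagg
Tbx18: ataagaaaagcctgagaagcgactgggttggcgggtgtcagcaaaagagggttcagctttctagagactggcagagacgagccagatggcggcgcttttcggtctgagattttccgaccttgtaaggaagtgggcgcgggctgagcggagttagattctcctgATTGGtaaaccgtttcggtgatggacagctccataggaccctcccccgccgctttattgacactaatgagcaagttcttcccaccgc
The Six2 stretch held 2 GC boxes and 1 CCAAT box with 26 CpG dinucleotides, and the Tbx1 stretch held none of these boxes and 10 CpG. The Tbx4 stretch held 1 GC box, 1 TATA box and 6 CpG, and the Tbx18 stretch held 1 CCAAT box and 15 CpG. Of 27025 promoter windows of the same length, 33% held a GC box, 34.5% a CCAAT box and 13% a TATA box, and the median window held 6 CpG. A T-box half-site (TCACACC, in 3.31% of windows), a Six-family site (TCAGGTT, in 3.52%) and an AP-1 site (TGANTCA, in 6.85%) were also searched on both strands, with no overlap between motifs counted, and these letters were not in the 4 windows. No motif searched was in all 4 windows.

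Six2 is the nephron progenitor factor. Its level was 1.60, 2.43 and 2.18 in the 3 shp53-first arrays and -6.72, -7.67 and -8.07 in the 3 RASV12-first arrays. The single-vector groups lay between, at -1.66, -0.38 and -1.82 with shp53 and -1.25, -1.44 and -1.14 with RASV12. Those 2 groups overlapped, while shp53-first was above and RASV12-first below every other array. The RASV12-first minus shp53-first difference was -9.55 ± 0.42 (log2, SE, n = 3 per group), and counted from the lowest signal well above background it was at least 266-fold lower. The second, dimmer Six2 probe was -2.37, -1.58 and -1.74 in shp53-first, its highest group, and was not above background on any RASV12-first array. It was above background on 1 of 3 shp53 and 2 of 3 RASV12 arrays, so it gives no order among those 3 groups.

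Tbx1, the pharyngeal arch factor, had the pattern nearest to that of Six2. Its levels were 1.52, 1.81 and 1.72 in shp53-first and -7.82, -6.72 and -8.42 in RASV12-first. They were -1.03, -1.31 and -1.04 with shp53 alone and -1.64, -1.59 and -1.56 with RASV12 alone. No 2 groups overlapped, and the order from high to low was shp53-first, shp53, RASV12, RASV12-first. Tbx1 differed by -9.34 ± 0.33 (log2, SE) between the orders, at least 204-fold lower in RASV12-first.

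Tbx4, which marks the hindlimb and also acts in the lung, was at a similar level in 3 groups and below background in the fourth. It was -1.41, -0.21 and -1.40 with shp53, -1.21, -1.05 and -1.19 with RASV12 and -0.98, -0.08 and -0.13 in shp53-first. In RASV12-first it was -7.75, -7.25 and -7.28, far below all other arrays. The difference between the orders was -7.03 ± 0.34 (log2, SE), at least 48.3-fold lower in RASV12-first. Shp53 and shp53-first overlapped, as did shp53 and RASV12.

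Tbx18, known from the epicardium, the sinus node and the somites, had the same kind of profile. Its levels were -1.90, -0.99 and -1.91 with shp53, -2.14, -1.74 and -2.05 with RASV12, and -1.99, -2.26 and -2.08 in shp53-first, with shp53 overlapping RASV12 and RASV12 overlapping shp53-first. In RASV12-first they were -7.28, -8.01 and -7.57. The difference between the orders was -5.51 ± 0.27 (log2, SE), at least 14.7-fold lower. Where Six2 and Tbx1 also stood higher in shp53-first than in the single-vector groups, by 2.80 to 3.35 log2 units, Tbx4 and Tbx18 did not move past 0.76 in either direction.

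Tbx2, one of the senescence-bypass repressors, had its groups in a graded order without overlap. It was -1.28, -1.90 and -2.09 in shp53-first, -3.03, -2.71 and -3.38 with shp53 and -4.76, -4.02 and -4.97 with RASV12. In RASV12-first it was -6.77, -5.70 and -5.92, and only the second of these arrays measured it well above background. RASV12-first was lower than shp53-first by a log2 difference of -4.37 ± 0.35 (SE). Tbx3, the other repressor of this pair and its close relative, was well above background on all arrays. Its levels were 1.66, 1.80 and 1.54 with shp53, 3.02, 3.15 and 2.94 with RASV12, 3.75, 3.53 and 3.37 in shp53-first and 2.44, 2.23 and 2.01 in RASV12-first. It too was lower in RASV12-first than in shp53-first, by -1.33 ± 0.15 (log2, SE), but its lowest group was shp53 and not RASV12-first. With RASV12 alone against shp53 alone the 2 genes went opposite ways, Tbx2 by -1.54 ± 0.35 and Tbx3 by 1.37 ± 0.15.

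Six4 and Tbx5 were the 2 genes that were higher in RASV12-first than in shp53-first. Six4, a factor of muscle and placode development, was 1.63, 1.17 and 1.14 in RASV12-first and 0.21, -0.22 and -0.30 in shp53-first. It was -0.85, -0.34 and -1.11 with RASV12 and -2.22, -0.77 and -2.28 with shp53, and these 2 groups overlapped. RASV12-first was thus the highest group, 1.42 ± 0.38 (log2, SE) above shp53-first. Tbx5, the forelimb and heart factor, was -0.16, -0.50 and -0.54 in RASV12-first and -3.82, -2.72 and -2.77 in shp53-first. It was -1.47, -0.31 and -1.28 with shp53, which overlapped RASV12-first, and -2.14, -1.61 and -2.11 with RASV12. Shp53-first was the lowest group for Tbx5, and the difference between the orders was 2.70 ± 0.36 (log2, SE).

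Tbx15, a regulator of skeletal and adipose development, was the one gene of the 9 whose groups overlapped between the orders. It was 1.88, 1.88 and 1.81 with shp53, 0.84, 0.79 and 0.87 with RASV12, 0.64, 0.51 and 0.26 in shp53-first and 0.54, 0.50 and 0.63 in RASV12-first. The difference between the orders was 0.09 ± 0.12 (log2, SE), and shp53 alone was the highest group.

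**Figure D1:**
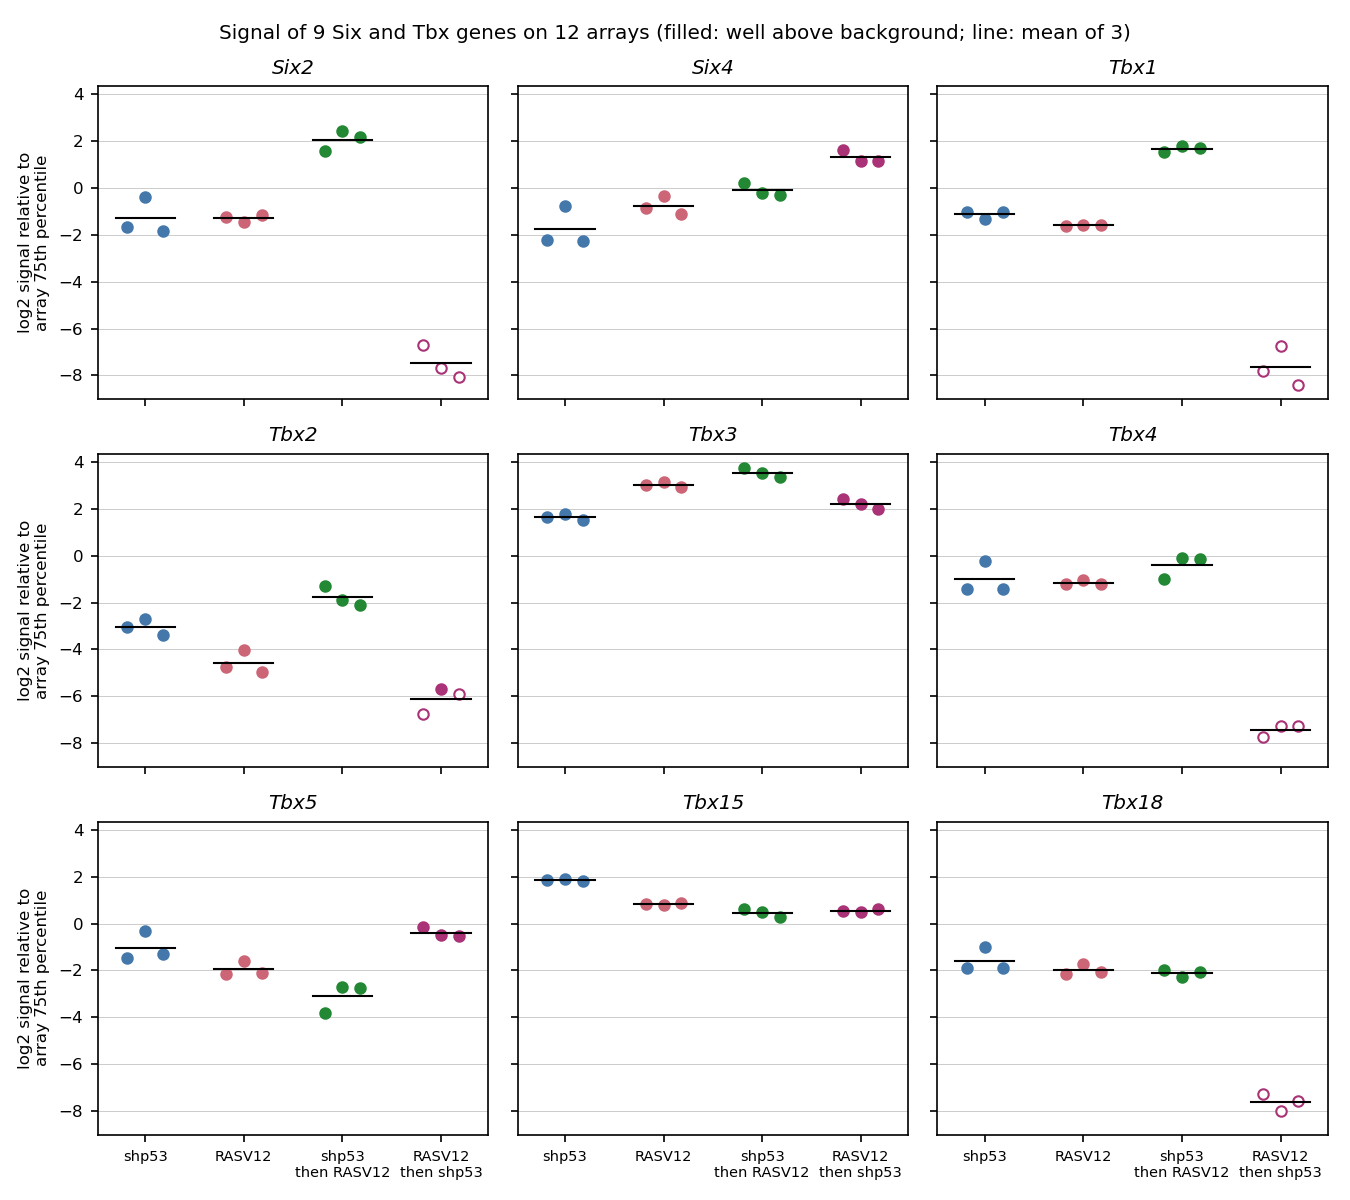
Log2 signal of the 9 genes relative to the 75th percentile of each array (vertical axis) in the 4 groups (horizontal axis), 1 point per array and a line at the mean of 3; filled points were well above background. Six2, Tbx1, Tbx4 and Tbx18 have only open points in RASV12-first (RASV12 then shp53), and Six4 and Tbx5 are higher there than in shp53-first (shp53 then RASV12).

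Between the 2 vector orders 8 of the 9 genes passed the threshold of the fit over all genes (limma, Benjamini-Hochberg adjusted p under 0.05), 2 higher and 6 lower in RASV12-first. Of all genes tested 15.8% passed, 7.33% higher and 8.47% lower. The choice of the genes used the values of all groups, so nothing is read from that count. The same holds for such counts in the other comparisons below. It also holds for whether a single gene of the 9 passed, with all arrays or with some left out. The 3 slides each held 1 array of each group, and within the slides the difference between the orders ran from -8.32 to -10.25 for Six2, from -8.53 to -10.14 for Tbx1, from -6.78 to -7.17 for Tbx4 and from -5.29 to -5.75 for Tbx18. It ran from -3.81 to -5.49 for Tbx2, from -1.30 to -1.36 for Tbx3, from 1.39 to 1.44 for Six4 and from 2.21 to 3.65 for Tbx5. The 2 orders did not overlap for these 8 genes, so the sign had to be the same on every slide and nothing is read from it. Tbx15 changed sign between slides, at -0.10, -0.01 and 0.37. The Six4 call was the one that depended on single arrays: it did not pass without replicate 2 or 3 of shp53-first or without any one RASV12-first array, when the difference was still 1.26 or more. With the closest 2 arrays of each group averaged to 1 sample, 7 of the 9 passed. Background correction moved the dim genes most. After plain normexp, a model-based background subtraction, the differences were -3.63 for Six2, -3.52 for Tbx1, -1.64 for Tbx4, -0.56 for Tbx2 and -0.32 for Tbx18, and 2 of the 9 genes passed. With aberrant local backgrounds replaced, an alternative chosen after seeing the data, 8 of the 9 passed and the differences were -5.16 for Six2, -5.08 for Tbx1, -3.07 for Tbx4, -1.72 for Tbx2 and -1.56 for Tbx18. Both settings gave smaller differences of the same sign for these genes.

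Each group with both vectors was also compared with the group of its first vector, called a step here. The labels do not tie the cultures of 1 group to those of another. Adding a vector therefore names a comparison of groups, and the effect of the step itself was not tested. Adding RASV12 to shp53 (shp53-first minus shp53) went with higher Six2 (3.35 ± 0.42, log2 and SE here and in the next values), Tbx1 (2.80 ± 0.33), Tbx3 (1.88 ± 0.15), Six4 (1.66 ± 0.38) and Tbx2 (1.29 ± 0.35). Tbx5 (-2.08 ± 0.36) and Tbx15 (-1.39 ± 0.12) were lower, and Tbx4 (0.61 ± 0.34) and Tbx18 (-0.51 ± 0.27) were not past the threshold. That made 7 of the 9 past it, against 37.6% of all genes tested. Adding shp53 to RASV12 (RASV12-first minus RASV12) went with lower levels of the 4 genes that were below background: Tbx4 was at least 28.6-fold lower, Six2 at least 26.2-fold, Tbx1 at least 21.0-fold and Tbx18 at least 16.1-fold. Tbx2 (-1.55 ± 0.35) and Tbx3 (-0.81 ± 0.15) were lower as well, and Six4 (2.08 ± 0.38) and Tbx5 (1.55 ± 0.36) were higher. Tbx15 (-0.28 ± 0.12) was not past the threshold, and 8 of the 9 were, against 38.8% of all genes tested. The 2 steps had opposite signs for Six2, Tbx1, Tbx2, Tbx3, Tbx4 and Tbx5 and the same sign for Six4, Tbx15 and Tbx18. After plain normexp the second-step differences were -0.94 for Tbx4, -0.64 for Six2, -0.62 for Tbx1 and -0.16 for Tbx18, and that of Tbx2 changed sign, to 1.22. With aberrant local backgrounds replaced they were -2.38 for Tbx4, -2.08 for Six2, -2.09 for Tbx1 and -1.61 for Tbx18. The fold bounds above therefore hold for the main processing only.

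Between the 2 single-vector groups the differences of the 9 genes ran from -1.54 (Tbx2) to 1.37 (Tbx3), in log2. With RASV12 alone against shp53 alone 3 of the 9 genes passed the threshold, Tbx3 higher and Tbx2 and Tbx15 (-1.02 ± 0.12, log2 and SE) lower, where 27.1% of all genes tested passed. Six2 (0.01 ± 0.42) and Tbx4 (-0.15 ± 0.34) had overlapping groups there, and Tbx5 (-0.93 ± 0.36) and Tbx1 (-0.47 ± 0.33) were lower without passing. Comparisons with shp53 carry a limit, because the shp53 arrays differed among themselves. The highest shp53 array for 8 of the 9 genes was replicate 2. On that array 6 leukocyte markers had a log2 summed level of 1.70, against 5.57 and 5.61 on the other 2 shp53 arrays, 0.87 to 1.08 with RASV12 and -0.69 to -0.10 in the two-vector groups, and the part of those cells in the results was not tested. Of the 6 markers, 6 were well above background on all 3 arrays with shp53 and 5 with RASV12. In shp53-first and in RASV12-first 3 of the 6 were. Ptprc, carried by all leukocytes, was above background only in shp53, so it does not stand for the list. Leaving out shp53 replicate 2 keeps the 2 shp53 arrays with the higher leukocyte sums. Without it, Six4 passed between RASV12 and shp53 (1.49) and Tbx4 passed between shp53-first and shp53 (1.01). Without shp53 replicate 3, Tbx2 did not pass between shp53-first and shp53 (1.11). The leukocyte sums of the 2 vector orders lay within the same range, -0.69 to -0.10 and -0.34 to -0.19.

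RASV12-first and shp53-first can also be set against the other single-vector group. RASV12-first minus shp53 gave 8 of 9 past the threshold, where 45.5% of all genes tested passed, with Tbx18 at least 21.0-fold and Tbx4 at least 31.6-fold lower, Six4 higher by 3.07 ± 0.38 (log2, SE) and Tbx5 (0.62 ± 0.36) not past it. Shp53-first minus RASV12 gave 5 of 9, where 25.4% of all genes tested passed. Those 5 were Six2 (3.35 ± 0.42), Tbx1 (3.28 ± 0.33), Tbx2 (2.83 ± 0.35) and Tbx3 (0.51 ± 0.15), which were higher, and Tbx5 (-1.15 ± 0.36), which was lower. These comparisons share arrays with those above and are not separate evidence.

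**Figure D2:**
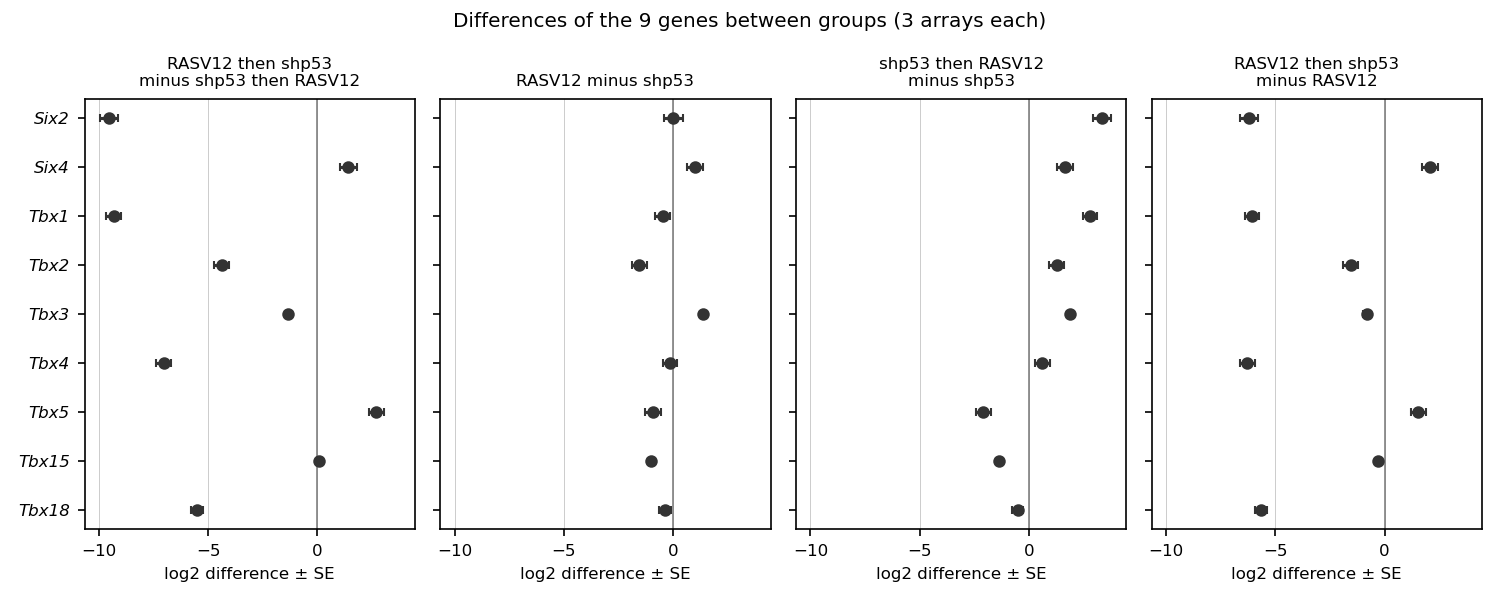
Log2 differences of the 9 genes (rows) with the SE of the fit, in 4 comparisons (panels) of 3 arrays per group; a point left of 0 is lower in the group named first. Six2 and Tbx1 lie near -9.55 and -9.34 in the first panel and between 2.80 and 3.35 in the third; values for genes below background are the measured ones and not bounds.

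Several of the 9 genes lie next to each other. In the RefSeq gene order Tbx2 and Tbx4 are neighbours on chromosome 11, and Tbx3 and Tbx5 on chromosome 5. Tbx2 and Tbx4 were both lower in RASV12-first than in shp53-first, by -4.37 and -7.03, while Tbx3 was lower by -1.33 and its neighbour Tbx5 higher by 2.70. The nearest tested genes outside the families were chosen after these values were seen. The 13 such genes differed between the orders by -0.49 to 0.67 (log2), and in 5 of them the groups did not overlap, against 32.1% of all genes tested. Between RASV12-first and RASV12 alone they ranged more widely, from -2.54 to 1.15, with Nt5e, the neighbour of Tbx18, at -2.54 ± 0.44 (SE). Between the orders, beside Six2, Camkmt and Srbd1 were at 0.67 ± 0.14 and 0.59 ± 0.16. Beside Tbx1, Gnb1l and Gp1bb were at -0.49 ± 0.17 and -0.30 ± 0.23. Beside Tbx2 and Tbx4, Bcas3 and Brip1 were at -0.20 ± 0.18 and 0.11 ± 0.43, and beside Tbx18, Cep162 and Nt5e were at 0.02 ± 0.13 and 0.47 ± 0.44 (SE in each case).

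**Figure D3:**
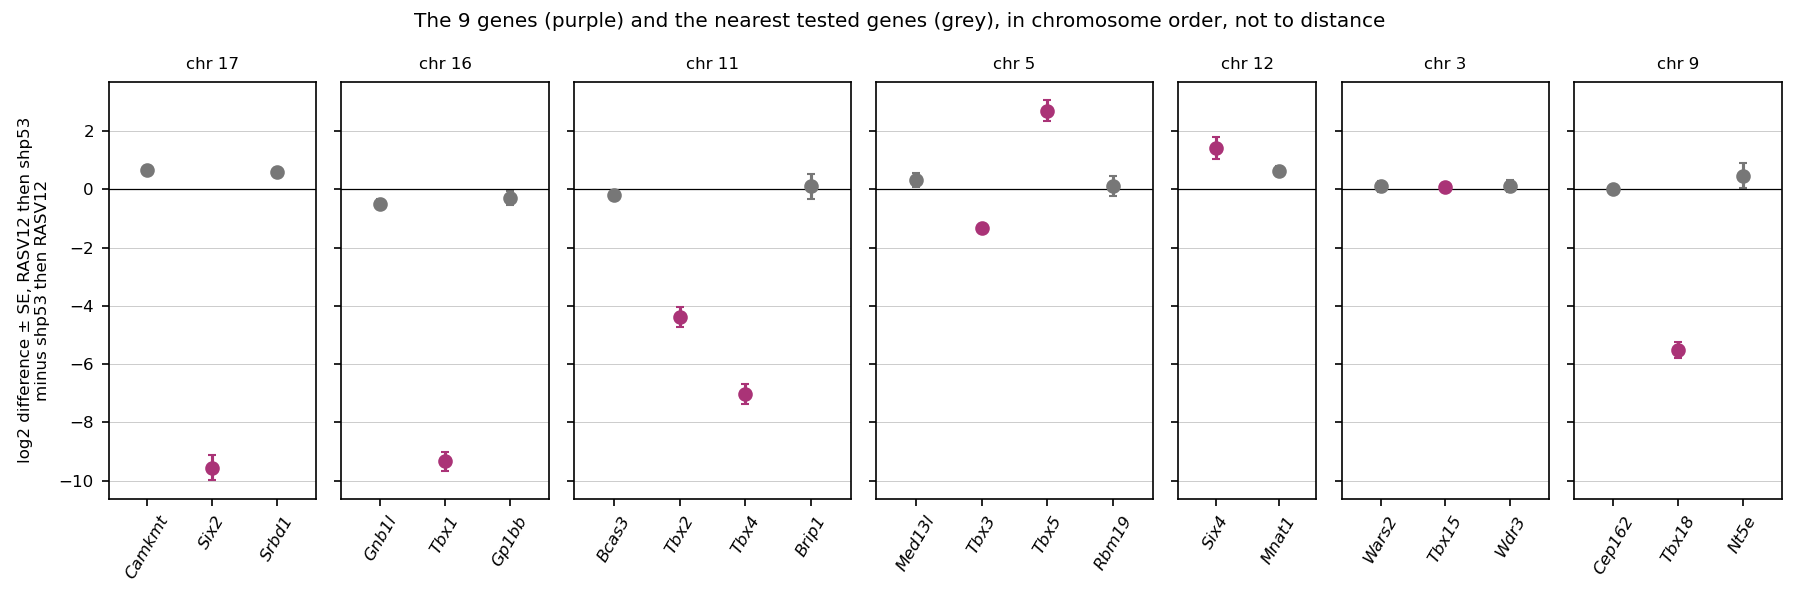
Log2 difference with SE between the vector orders (RASV12-first minus shp53-first, vertical axis) for the 9 genes (purple) and the nearest tested genes beside them outside the families (grey), in chromosome order but not to distance. Outside the families the values lie between -0.49 and 0.67, and Six2, Tbx1, Tbx2, Tbx4 and Tbx18 lie at -4.37 or lower. The 9 genes were chosen on their differences, so this contrast is a description.

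Likeness of pattern was measured as the root mean square (RMS) difference over the 12 arrays after each gene was centred on its own mean, among 14382 genes with a value on every array, for the 7 genes whose group means spanned at least 2 log2 units. Six2 and Tbx1 were each other's nearest gene, with an RMS of 0.62. The next for Six2 were Cmbl (0.97) and Heph (1.01), and for Tbx1 Heph (0.78) and Cmbl (0.95). Tbx18 was nearest to Tcfl5 (0.34), Hoxa10 (0.54) and Foxf1 (0.55). Tbx4 was nearest to Hoxa11os (0.47), Nmral1 (0.47) and Foxf1 (0.61), and stood at 0.67 from Tbx18. Tbx2 was nearest to Npnt (0.57), Ces1a (0.58) and Ebf3 (0.61). Tbx5 was nearest to Optc (0.31), Adamts6 (0.47) and Mrln (0.49), and Six4 to Rcor2 (0.36), Acoxl (0.39) and Ncoa7 (0.39). The ranking used the same 12 arrays that chose the genes, and it says nothing of shared function.

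A list of 12 other Six- and T-box genes was tested separately, and 6 of them passed the filter. Six3, Six6, T, Tbr1, Tbx19 and Tbx21 did not. Between the orders 2 of the 6 changed, Tbx20 and Eomes, both lower in RASV12-first, where 15.8% of all genes tested changed and 8.47% were lower. Tbx20, a heart regulator, was at least 4.97-fold lower in RASV12-first (limma adjusted p = 3.49e-06), with levels of -4.18, -3.34 and -3.51 in shp53-first and that probe above background on no array of RASV12-first or shp53. Another Tbx20 probe, which did not pass the filter, was above background on 1 RASV12-first array (-5.03), and its means were -6.67 in RASV12-first and -6.89 in shp53-first. Eomes, which specifies mesoderm, fell by 1.73 ± 0.23 (SE; limma adjusted p = 0.000625), and its second probe was not above background on any array of either order. Six5, Tbx6, Tbx10 and Mga did not pass. After plain normexp none of the 6 passed, and the values for Tbx20 and Eomes changed sign (0.17 and 0.41).

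In the single-vector comparison Tbx20 (at least 2.30-fold, limma adjusted p = 1.19e-05) and Eomes (1.25 ± 0.23, limma adjusted p = 0.00253) were higher and Six5 (-0.99 ± 0.16, limma adjusted p = 0.00127) lower with RASV12. With RASV12 added to shp53, Tbx20 was at least 5.67-fold higher (limma adjusted p = 1.08e-06) and Six5 lower (-0.55 ± 0.16, limma adjusted p = 0.0212). The other Tbx20 probes, which did not pass the filter, were above background on no shp53, RASV12 or shp53-first array. After plain normexp the Tbx20 values of both comparisons changed sign (-1.36 and -0.33). With shp53 added to RASV12, Mga (0.74 ± 0.18, limma adjusted p = 0.00880), a T-box protein that pairs with Max, was higher. Eomes (-3.08 ± 0.23, limma adjusted p = 6.23e-06) and Tbx20 (at least 2.01-fold, limma adjusted p = 2.95e-05) were lower in that step.

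Genes that act with the Six- and T-box factors were grouped in 4 lists with 62 genes in all, of which 47 passed the filter. Between the orders 11 of the 47 changed, 4 higher and 7 lower in RASV12-first, with a median log2 difference of -0.29, against 15.8% changed and a median of 0.00 over all genes tested. Of the 9 Eya, Dach and Pax genes tested 3 fell and none rose. Pax3, a neural crest and muscle progenitor factor, was -0.12, -0.34 and -0.32 in shp53-first and -5.20, -4.19 and -4.48 in RASV12-first, and fell by 4.36 ± 0.23 (SE; limma adjusted p = 9.63e-07). Pax1, of the sclerotome and pharyngeal pouches, was at least 7.60-fold lower (limma adjusted p = 6.20e-05), and Dach2 fell by 2.08 ± 0.45 (SE; limma adjusted p = 0.0104). Of 22 limb bud genes tested 2 rose and 2 fell. Hand2, a posterior limb and heart factor, rose by 2.58 ± 0.17 (limma adjusted p = 4.93e-06) and Gli3, the Hedgehog effector, by 0.80 ± 0.17 (limma adjusted p = 0.00915). Msx1 was at least 1.66-fold lower (limma adjusted p = 0.00649), and the BMP antagonist Grem1 fell by 1.01 ± 0.30 (limma adjusted p = 0.0488), a call that 15 of 20 alternatives did not keep. Of 11 pharyngeal arch and heart genes tested Hand2 rose, and Foxc2 (-2.65 ± 0.49, limma adjusted p = 0.00463) and Foxc1 (-1.38 ± 0.33, limma adjusted p = 0.0185), forkhead factors of the mesoderm, fell. Of 10 nephron progenitor genes tested 2 rose and none fell: the receptor gene Ret by 2.91 ± 0.52 (limma adjusted p = 0.00387), which only 1 shp53-first array measured above background, and its ligand gene Gdnf by 1.47 ± 0.37 (limma adjusted p = 0.0216), which did not pass in 7 of 20 alternatives. No gene of the nephron list that changed between the orders had the sign of Six2. Hand2 passed in all 20 alternatives. Foxc1 did not pass in 5 of 20, Foxc2 in 3 of 20, Gli3 in 2 of 20 and Pax3 in 1 of 20. Ret did not pass in 3 of 19 and Pax1 in 1 of 19. Msx1 did not pass in 4 of 19 and Dach2 in 3 of 19, and each changed sign in 1 more. With aberrant local backgrounds replaced, Dach2, Msx1, Foxc2, Foxc1 and Ret did not pass.

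With RASV12 added to shp53, 9 of the 47 were higher and 17 lower, where 37.6% of all genes tested changed. With shp53 added to RASV12, 6 were higher and 21 lower, where 38.8% of all genes tested changed. Wt1, Wnt4 and Foxd1, kidney genes that were also lower with RASV12 alone than with shp53 alone, fell in both steps, Wt1 at least 69.2-fold (limma adjusted p = 3.60e-07) in shp53-first and at least 9.30-fold (limma adjusted p = 3.69e-06) in RASV12-first, though in the latter the 3 values changed sign after plain normexp. Pitx1, the hindlimb factor upstream of Tbx4, fell in both steps too. It was lower by -7.07 ± 0.69 (limma adjusted p = 3.84e-05) in shp53-first, where 1 of 3 arrays measured it, and at least 74.9-fold lower (limma adjusted p = 1.40e-05) in RASV12-first. Tbx4 was well above background in shp53-first, so the 2 hindlimb genes differed in that group. Pax3 rose by 4.34 ± 0.23 (limma adjusted p = 9.57e-07) when RASV12 was added to shp53, the step in which Six2 and Tbx1 were higher. Foxc1 fell in both steps, by -2.55 ± 0.33 (limma adjusted p = 0.000248) and -2.64 ± 0.33 (limma adjusted p = 0.000215). With RASV12 alone against shp53 alone 8 of the 47 were higher and 13 lower, where 27.1% of all genes tested changed, among them Dach1 (3.45 ± 0.49, limma adjusted p = 0.000546) and Gdnf (3.28 ± 0.37, limma adjusted p = 0.000133) higher and Eya4 (-3.18 ± 0.26, limma adjusted p = 2.06e-05) and Msx1 (-3.40 ± 0.24, limma adjusted p = 7.54e-06) lower.

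**Figure D4:**
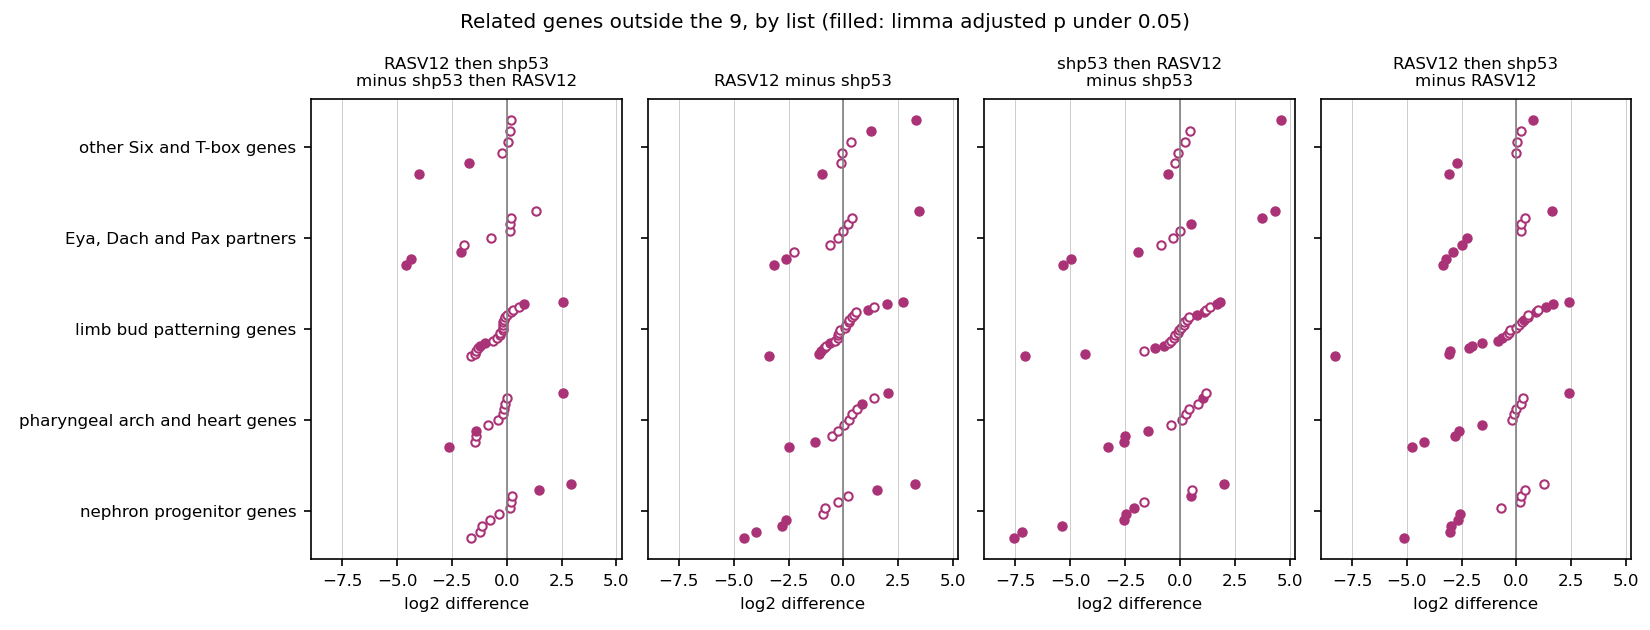
Log2 differences of the related genes outside the 9, by list (rows), in 4 comparisons (panels), filled where the limma adjusted p was under 0.05. In the first panel 2 of 6 other Six- and T-box genes and 11 of the 47 partner genes are filled, and in the fourth panel 27 of the 47 are.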

How the data were processed

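Total RNA from 12 fibroblast samples was labelled with Cy3 and hybridised to one-colour Agilent arrays, per the labels' protocols. The deposited values used are the processed signal intensity per spot, made by the authors with Agilent Feature Extraction (11.5.1.1 per the file headers, 10.7.3.1 per the submitters' processing notes), and the authors' deposited table of log2 values, which held 25916 probes and was used as an alternative. The headers name mouse build mm9, and gene names and order came from RefSeq (GRCm38.p6). Spots flagged as outliers (1717, 0.333%) and control spots were left out, none was saturated, and spots of 1 probe were averaged. Each array's 75th percentile was subtracted after log2, a probe was kept if some group had it well above background in its 3 replicates (23899 of 39429 probes), and the brightest kept probe stood for its gene. Differences, their SE and p-values came from limma 3.58.1 in R 4.3.3 (1 mean per group over 12 arrays, eBayes, Benjamini-Hochberg over 14444 genes, threshold 0.05), which was tested on simulated data. The number of arrays limits the precision, and 3 arrays against 3 cannot go below an exact permutation p of 0.1. Where a group was below background on all its arrays, the fold was counted as a bound from the higher of the lowest signal well above background and the probe's own. Such bounds hold for the main processing and not for other background corrections. Replicate numbers match the slides, and same-numbered arrays deviated together in the comparison of the vector orders (correlations 0.60, 0.45 and 0.32). However, RASV12-first replicate 3 correlated best with shp53-first replicate 2, so the numbers are not shown to pair samples. The labels call the replicates independent but tie none to an embryo or culture, so p-values measure the spread between these samples, and culture and group cannot be told apart. The 9 genes and all lists (other family members, 4 partner lists, cell type markers) were chosen with earlier results of these data known. Genes outside the 9 were named where called, up to 4 per list and comparison by smallest adjusted p, with the 3 nearest in pattern for each of the 9 that spanned 2 log2 units. Alternatives were other background correction, scaling, filters, probe rules, fits and arrays left out. Tbx2, Tbx3, Tbx5 and Tbx15 had no entry in the promoter table used here. Some genes of the lists are not reported here.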

Additional observations from a re-analysis of the deposited data

How the results depend on the processing

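The 9 genes kept their sign in every alternative run for a difference past the threshold except Tbx2 in RASV12-first minus RASV12, which was 1.22 after normexp on the scanner's median signals. Their calls were less stable than their signs: for the order, single-vector, shp53-first and RASV12-first comparisons in turn, 8, 3, 7 and 8 of the 9 genes passed, 2, 0, 2 and 2 after plain normexp, and 8, 7, 8 and 9 with only the closest arrays kept. Local backgrounds over 5 times the array median (77 spots) went into that setting; normexp with those replaced was chosen after seeing the data. Under plain normexp these genes outside the 9 also changed sign: between the orders Tbx20 (0.17), Eomes (0.41), Dach2 (0.43) and Msx1 (0.69); with RASV12 against shp53 Tbx20 (-1.36) and Eomes (-0.58); in shp53-first against shp53 Tbx20 (-0.33); and in RASV12-first against RASV12 Eomes (0.34), Tbx20 (1.20), Eya4 (0.98), Dach2 (0.30), Pax1 (1.35), Pax9 (1.20), Msx1 (1.18), Wt1 (0.34), Wnt4 (1.07) and Foxd1 (1.14). For the order, single-vector, shp53-first and RASV12-first steps in turn, plain normexp called 0, 0, 0 and 0 of the other 6 Six- and T-box genes and 1, 2, 2 and 3 of the 47 partner genes; with backgrounds replaced it called 1 other family gene and 6 partner genes between the orders and 15 in the RASV12-first step. Keeping only probes above background on all 12 arrays, which leaves fewer genes tested and leaves out Six2, Tbx1, Tbx2, Tbx4 and Tbx18, called 0, 1, 1 and 1 of the other family genes and 7, 12, 14 and 15 partner genes. With the closest arrays averaged 3, 9 and 14 partner genes (order, single-vector and RASV12-first) and 1 other family gene (shp53-first) were called. With only the closest arrays kept 27 partner genes were called between the orders. Median scaling called 1 other family gene in shp53-first, and it moved the share of higher calls among all genes between the orders from 46.4% to 68.5%, with the median of all genes at 0.25; the 9 genes stayed at 2 higher and 6 lower. The slide and replicate number as a block (replicate block) called 8 of the 9 genes, 2 other family genes and 11 partner genes between the orders, as without it, and 8, 3, 7 and 8 of the 9 genes in the 4 comparisons, the same counts as without it; in a fit of only the 2 groups with the block, chosen after seeing the data, 1 other family gene was called in shp53-first. In no comparison did every array of the group named first correlate best with the same number of the other group. Leaving out 1 array at a time gave 9 to 14 partner genes between the orders, and 1 to 3 other family genes in shp53-first (1 without shp53 replicate 1 or 3 or shp53-first replicate 2 or 3, 3 without shp53 replicate 2). The cause of these shifts was not tested. Genes below background in a group have only a bound there.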
